A study of Mus musculus with 4 samples.

Results

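The 48 genes described here encode parts of the axoneme, the microtubule core of cilia and sperm tails, and the flagellar structures around it. They were taken by symbol from a list of such genes, and each was found once among the 54232 genes of the count table. RNA of whole testes from postnatal day 17 (P17) mice was sequenced in 4 libraries, 2 of genotype Dis3 WT (the control) and 2 of genotype Dis3 KO, a conditional knockout. All were of the strain given as B6D2F1 inbred. No treatment is named, and how the gene was deleted, and in which cells, is not stated in the labels used here. The product of Dis3 is a nuclease of the RNA exosome, which degrades and trims RNA, and the design asks which genes differ in expression when it is deleted.

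An axoneme carries a ring of doublet microtubules around a central pair. Outer and inner dynein arms on the doublets are the motors, cytoplasmic assembly factors fold and preassemble the arms, and docking proteins, a molecular ruler, the nexin link and the radial spokes set their position and control. Outer dense fibres and a fibrous sheath surround the axoneme in sperm only. In the testis many axonemal genes are transcribed in pachytene spermatocytes, the germ cells of mid meiotic prophase, well before a tail forms, whereas several fibre and sheath genes wait for round spermatids.

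The WT libraries held 31031920 and 40329170 gene reads and the KO libraries 17663416 and 19255782. Levels are given as RPKM, reads scaled to exon length and to the TMM-scaled library size, in the order WT replicate 1, WT replicate 2, KO replicate 1, KO replicate 2, and differences as log2 fold changes of KO over WT ± SE with n = 2 libraries per genotype. The labels do not state that replicates are different animals, so p-values reflect the spread among these 4 libraries, which may be technical. Background, taken from regions upstream of genes left untested for want of reads, was 0.0907 and 0.0661 RPKM in the WT libraries and 0.164 and 0.163 RPKM in the KO libraries. Dis3 itself had 10.3, 10.4, 5.1 and 5.53 RPKM and fell by 0.96 ± 0.0729 on the log2 scale (edgeR quasi-likelihood test, adjusted p = 2.34e-09). Its remaining reads can come from cells that keep the gene or from outside the deleted part.

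Of the 48 genes 47 had enough reads to be tested and 40 of these fell in KO, where 20.3% of all 25076 tested genes fell. A further 4 rose, against 11.6% of all tested genes. Dnal1, Rsph4a and Akap4 did not pass the test, and Odf1 was not tested. Those that fell had log2 fold changes between -0.42 and -1.18, with a median of -0.73. In each of the 40 both KO libraries lay below both WT libraries, as they did in 100% of all genes called lower and in 32.7% of all tested genes. This adds nothing to the calls, here or by role below. The median over the 47 was -0.69 and that over all tested genes was 0.05. In 37 of the 40 KO replicate 2 was the lower of the KO libraries, and in 11 WT replicate 2 was the lower of the WT libraries. Whole testes were sequenced, so fewer cells of a type and less RNA per cell cannot be told apart in any of these values.

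The division between falling and rising genes followed the level. All 40 genes that fell were among the 41 at 5 times background reads or more, at a median of 114 times background. The remaining 7 genes, Dnah3, Dnah5, Dnah9, Dnah11, Rsph4a, Akap4 and Odf1, lay under 5 times background, and the 4 that rose were among them. Over all tested genes the same division gave 30.5% lower and 8.44% higher at 5 times background or more (median -0.12), and 0.131% lower and 17.8% higher under it (median 0.74). The count over all genes, 5092 lower and 2906 higher, became 6826 and 2000 after scaling to Sertoli cell genes, 4374 and 1008 with DESeq2, and 5388 and 1208 after background reads were subtracted.

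**Figure D1:**
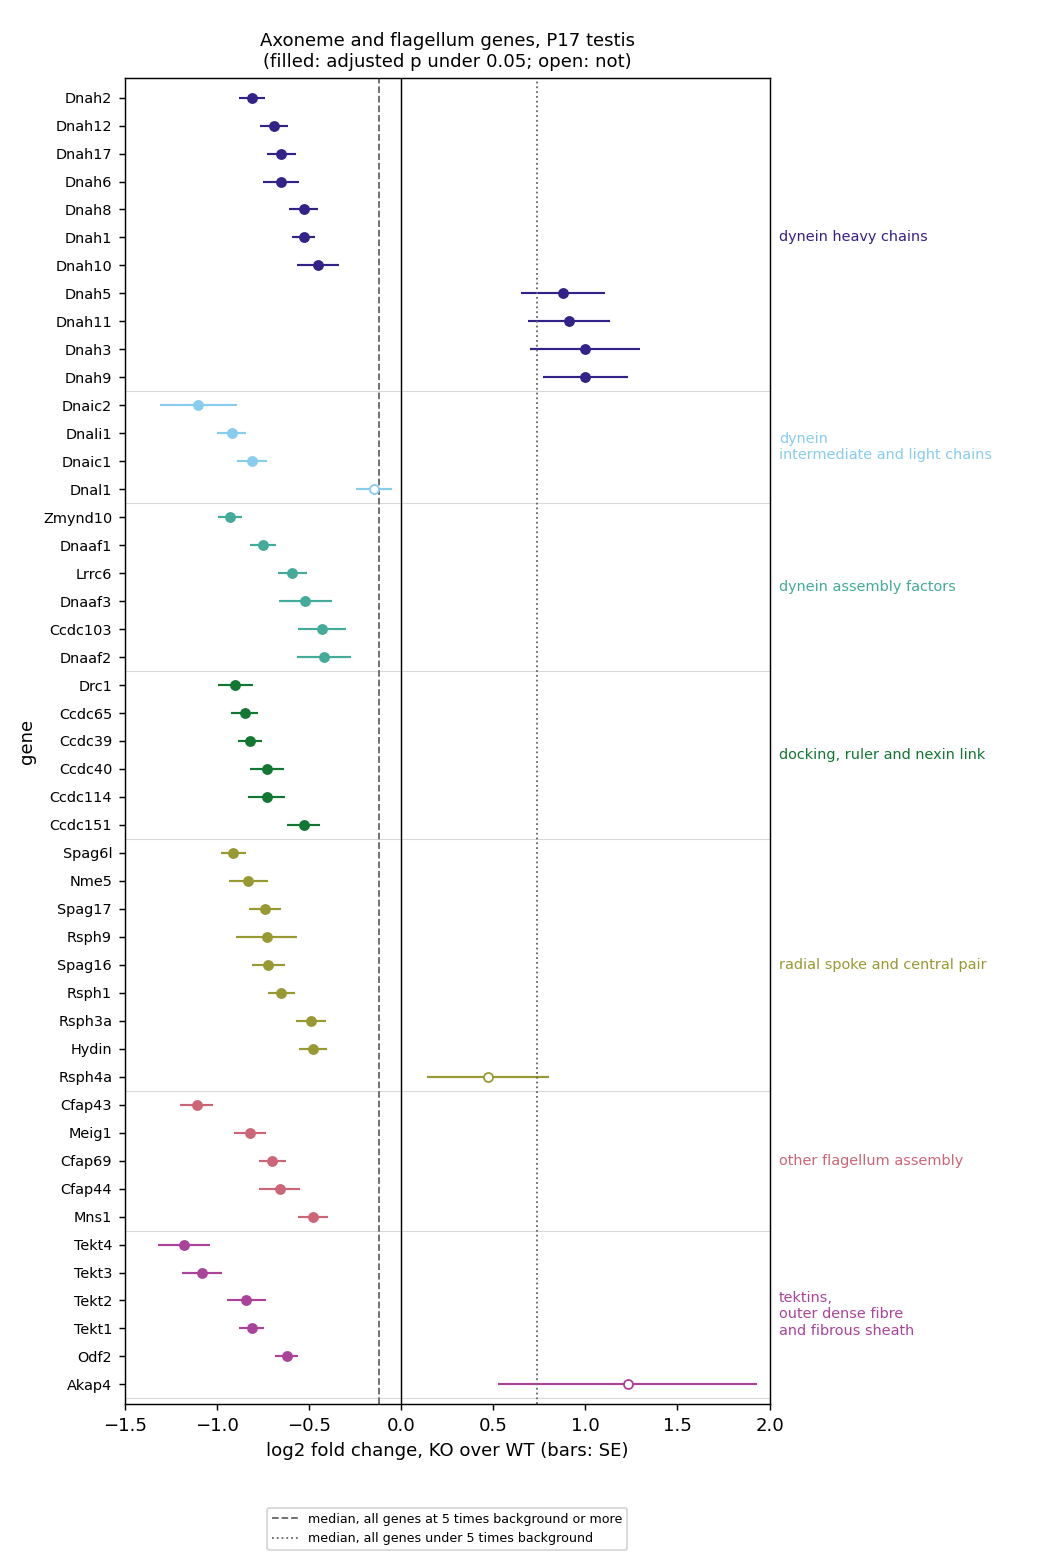
Log2 fold change of KO over WT for the 47 tested genes, grouped by role, with bars of 1 SE from the edgeR fit (n = 2 libraries per genotype) and open symbols for genes that did not pass. The 40 genes that fell lie between -0.42 and -1.18, all left of the median of well expressed genes (-0.12, dashed), and the 4 dynein heavy chain genes that rose lie near the median of genes under 5 times background (0.74, dotted).

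**Figure D2:**
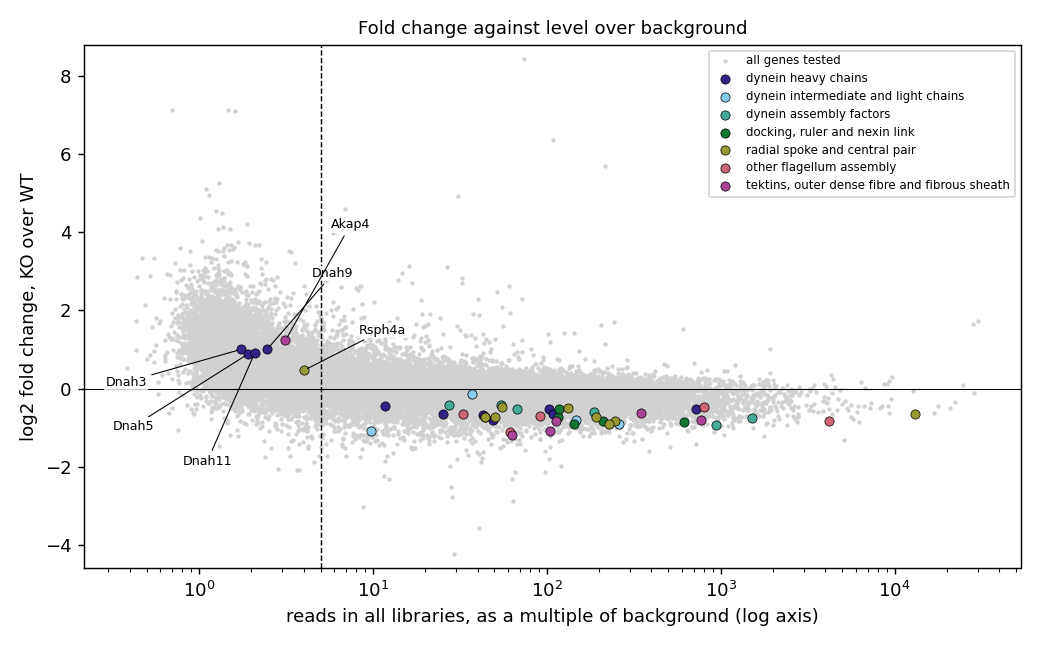
Log2 fold change of KO over WT against reads in all libraries as a multiple of background (log axis), for tested genes with a background estimate (grey) and the axoneme and flagellum genes (coloured by role). Named genes left of the dashed line at 5 times background are those whose values lie with the grey cloud of low genes centred on 0.74.

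Promoters were read because most of these genes fell together. RFX factors, regulators of ciliary genes, bind the X-box, whose arms were searched as GTTNCC and GGNAAC with any 2 bases between them, and whose single arm in the form GTTGCCA overlaps the first pattern. Promoter windows of 250 bases before the start were found for 41 of the 48 genes in RefSeq's table (GRCm38.p6), with none for Nme5, Lrrc6, Dnaaf1, Dnah3, Rsph4a, Odf1 and Rsph1. A gene counted as a match where any of its windows held the letters on either strand. The whole X-box was present in 1 of the 41, Ccdc151 (2.44%), and in 0.444% of the 27025 genes of the table. The single arm was present in 6 of the 41 (14.6%), Cfap44, Dnaaf2, Drc1, Hydin, Mns1 and Tekt1, against 4.19% of all genes. AACTGNC, bound by MYB factors such as the meiotic regulator MYBL1, was present in 9 of the 41 (22%) against 12.1%. These are letter matches, not shown binding sites, and no test was made of the shares. The 60 bases around the match are printed, as the gene reads, for the 4 genes whose stretch lies outside the gene as counted. Capitals mark the match, the whole X-box in Ccdc151 and the single arm, read on the opposite strand, in the others.
Ccdc151, chr9:22002635-22002694, minus strand: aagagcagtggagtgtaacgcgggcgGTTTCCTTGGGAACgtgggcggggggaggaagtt
Hydin, chr8:110266917-110266976, plus strand: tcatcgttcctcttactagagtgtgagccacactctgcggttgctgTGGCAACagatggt
Dnaaf2, chr12:69198430-69198489, minus strand: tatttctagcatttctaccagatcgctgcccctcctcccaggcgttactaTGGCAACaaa
Cfap44, chr16:44394642-44394701, plus strand: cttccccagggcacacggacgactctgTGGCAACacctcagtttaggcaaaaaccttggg
The match ends 20 bases before the start in Ccdc151, 7 in Hydin, 3 in Dnaaf2 and 123 in Cfap44, which has another 13 bases before it. The 4 genes fell in KO, with the values given below by role. So did 40 of the 47 tested genes, with or without a match, so a fall is not particular to genes with one.

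Dynein heavy chains, the motor subunits of the arms, fell into separate sets by level. Of 11 genes 7 fell and 4 rose, with a median of -0.53. At 5 times background or more 30.5% of all tested genes fell, and under it 17.8% rose. The counts in this and the following role groups are to be read beside these shares. Dnah8 (chr17:30624354-30875264, GRCm38), an outer arm heavy chain of sperm tails, was the most expressed, at 84.7, 92.4, 67 and 55.6 RPKM. It fell by 0.53 ± 0.0778 on the log2 scale (adjusted p = 3.68e-05). Its outer arm partner in sperm, Dnah17 (chr11:118021723-118130634), was at 13.5, 13.8, 9.63 and 7.82 RPKM and fell by 0.65 ± 0.0766 (adjusted p = 4.56e-06). In both genes every KO library was below every WT library, as in all genes called lower.

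Among inner arm heavy chains Dnah2 (chr11:69420809-69549110) fell most, from 6.06 and 6.57 RPKM in WT to 3.78 and 3.44 RPKM in KO (log2 fold change -0.81 ± 0.072, adjusted p = 1.60e-08). Dnah12, at 5.28, 5.48, 3.49 and 3.18 RPKM, fell by 0.69 ± 0.0763. Dnah6, at 2.97, 3.35, 2.23 and 1.81 RPKM, fell by 0.65 ± 0.098. The groups did not overlap in any of these inner arm genes, as in all genes called lower. Dnah1, a gene needed for the stability of the sperm axoneme, was at 12.3, 12.9, 9.25 and 8.28 RPKM and fell by 0.53 ± 0.065. Dnah10 had the lowest level of the 7, at 1.4, 1.41, 1.16 and 0.906 RPKM, and its fall was the smallest (-0.45 ± 0.114, adjusted p = 0.00416). Without KO replicate 2 its adjusted p was 0.0562, with a log2 fold change of -0.33.

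The 4 heavy chains that rose were near background. Dnah5, Dnah9 and Dnah11 encode the outer arm heavy chains of motile cilia outside the testis, and Dnah3 an inner arm heavy chain. Dnah9 (chr11:65831282-66168551) had 121, 87, 112 and 133 reads in the 4 libraries, where background over its length would give 42.8, 40, 47.8 and 53.7 reads. Scaled to length and depth these are 0.257, 0.144, 0.385 and 0.405 RPKM, a log2 fold change of 1 ± 0.23 (adjusted p = 0.002). Reads as counted were thus similar in all 4 libraries, while the KO libraries held fewer reads in total and a higher background RPKM.

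Dnah11 had 77, 90, 83 and 99 reads, which is 0.18, 0.164, 0.315 and 0.333 RPKM, and rose by 0.91 ± 0.221 (adjusted p = 0.00267). Dnah5 had 83, 84, 88 and 90 reads, which is 0.18, 0.142, 0.309 and 0.28 RPKM, and rose by 0.88 ± 0.227 (adjusted p = 0.00473). Dnah3 had 81, 51, 86 and 69 reads, which is 0.192, 0.094, 0.33 and 0.234 RPKM, and rose by 1 ± 0.298 (adjusted p = 0.0146). Both KO libraries lay above both WT libraries in each of the 3, at 2.09, 1.91 and 1.74 times background over all libraries. Background RPKM was itself higher in both KO libraries, so this separation adds nothing to the calls. After background reads were subtracted at the library scale as counted, Dnah9 alone of the 4 kept its call (log2 fold change 0.95, adjusted p = 0.032). The adjusted p was then 0.0812 for Dnah11, 0.174 for Dnah5 and 0.274 for Dnah3. Without WT replicate 2 Dnah3 (0.54, adjusted p = 0.179) and Dnah5 (0.69, adjusted p = 0.0571) were also not called, and without KO replicate 1 Dnah3 was not (0.72, adjusted p = 0.0982).

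**Figure D3:**
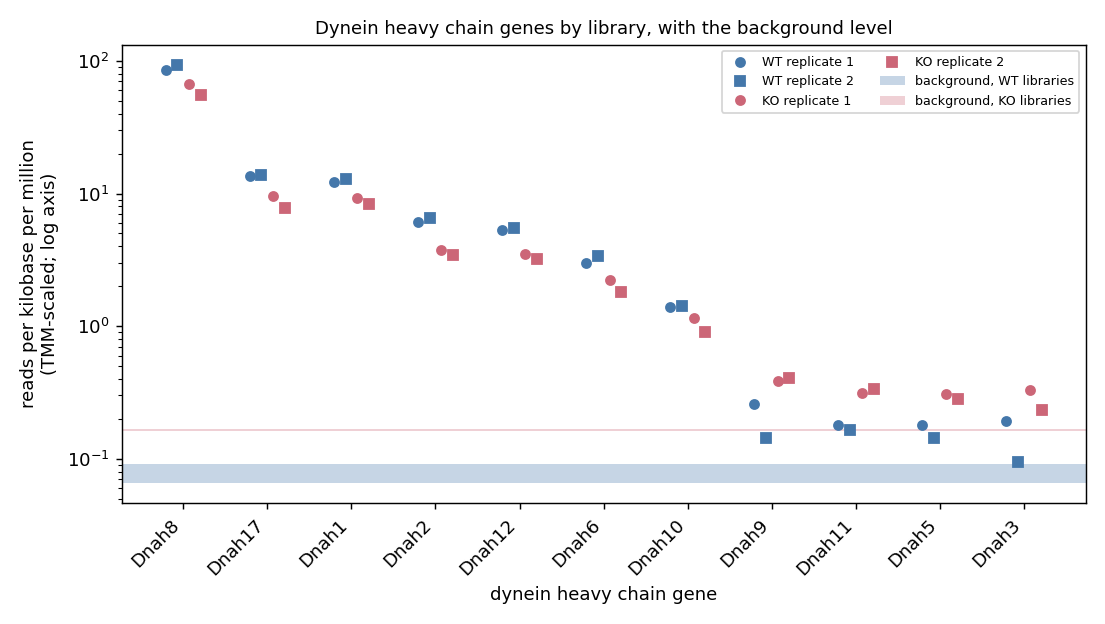
Level of each dynein heavy chain gene in the 4 libraries, as TMM-scaled RPKM on a log axis, with bands for the background level of the WT and KO libraries. The 7 genes at left have both KO libraries below both WT libraries, from Dnah8 at 55.6 to 92.4 RPKM down to Dnah10 at 0.906 to 1.41 RPKM, while Dnah9, Dnah11, Dnah5 and Dnah3 lie between 0.094 and 0.405 RPKM, at up to 2.46 times background over all libraries.

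Of the 4 intermediate and light chain genes 3 fell, with a group median of -0.86. Dnaic1, an outer arm intermediate chain gene (chr4:41569775-41638158), was at 18.7, 19.2, 11 and 10.6 RPKM and fell by 0.81 ± 0.08 (adjusted p = 7.05e-08). Its partner Dnaic2 had a much lower level, at 1.46, 1.2, 0.685 and 0.553 RPKM, and fell by 1.10 ± 0.208 (adjusted p = 2.52e-04). Dnali1, an inner arm light intermediate chain gene (chr4:125055338-125065703), went from 32.9 and 34.8 RPKM in WT to 19.3 and 16.5 RPKM in KO, a fall of 0.92 ± 0.0804 (adjusted p = 1.26e-08). The groups were apart in all 3, as in all genes called lower. Dnal1, an outer arm light chain gene, was the only gene above 5 times background that did not pass. It was at 3.82, 4.46, 3.91 and 3.6 RPKM, so that KO replicate 1 lay inside the range of the WT libraries (log2 fold change -0.15 ± 0.0977, adjusted p = 0.262). The level of Dnaic1 over that of Dnal1 was 4.88 and 4.3 in WT and 2.83 and 2.93 in KO, a pair chosen after its values were seen.

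All 6 dynein assembly factor genes fell, with a median of -0.55. Zmynd10 (chr9:107547298-107551319), which encodes a chaperone adaptor needed for both kinds of arm, was at 118, 128, 67.3 and 61.6 RPKM and fell by 0.93 ± 0.0645 (adjusted p = 7.08e-10). Dnaaf1 had the highest level of the group, at 194, 193, 125 and 105 RPKM, and fell by 0.75 ± 0.0704. Lrrc6, a partner of Zmynd10, was at 22.7, 23.6, 15.5 and 15.3 RPKM and fell by 0.59 ± 0.08. In these genes both KO libraries were below both WT libraries, as in all genes called lower.

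The other 3 assembly factors had lower levels and weaker evidence. Dnaaf3 was at 9.45, 7.15, 6.54 and 5.04 RPKM (-0.52 ± 0.145, adjusted p = 0.0112), Ccdc103, which helps dynein arms attach, at 6.64, 6.47, 4.67 and 5.04 RPKM (-0.43 ± 0.131, adjusted p = 0.0148). Dnaaf2, whose promoter is printed above, was at 3.14, 3.38, 2.12 and 2.74 RPKM (-0.42 ± 0.146, adjusted p = 0.0309). The groups did not overlap, as in all genes called lower, but the calls depended on single libraries and on the method. Dnaaf2 and Ccdc103 were not called with DESeq2 (adjusted p = 0.0942 and 0.0521), and none of the 3 was with background subtracted and TMM anew (0.107 for Dnaaf2, 0.0764 for Ccdc103 and 0.0587 for Dnaaf3). Dnaaf2 was also not called with a filter of 1 CPM in 2 libraries (adjusted p = 0.0565). Dnaaf3 was not called without WT replicate 1 (adjusted p = 0.0728), Ccdc103 not without KO replicate 1 (adjusted p = 0.065), and Dnaaf2 neither without KO replicate 1 (adjusted p = 0.263) nor without WT replicate 2 (adjusted p = 0.128). Dnaaf2 also shares 38.7% of its exon bases with another gene on the same strand, so its count is uncertain.

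Docking, ruler and nexin link genes fell in 6 of 6 cases, with a median of -0.78. Drc1 (chr5:30281388-30366695), a nexin link gene, was at 18.3, 19.2, 11.3 and 8.85 RPKM and fell by 0.90 ± 0.0958 (adjusted p = 2.65e-07). Ccdc65, another nexin link gene, was at 79.6, 80.3, 48.3 and 40.3 RPKM and fell by 0.85 ± 0.0722. The WT libraries of both genes nearly coincided and KO replicate 2 was lowest. Ccdc39 and Ccdc40 encode the paired proteins of the ruler along the doublets. Ccdc39 was at 26, 27.9, 16.1 and 14.5 RPKM and fell by 0.82 ± 0.0654 (adjusted p = 4.09e-09). Ccdc40 was at 14.4, 15.1, 10 and 7.81 RPKM and fell by 0.73 ± 0.0915. The outer arm docking genes Ccdc114 (5.06, 6.04, 3.51 and 3.2 RPKM, -0.73 ± 0.102) and Ccdc151 (14.7, 14.3, 10.5 and 9.52 RPKM, -0.53 ± 0.0893) fell as well. Ccdc151, with the X-box printed above, had the smallest fall of this group.

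Radial spoke and central pair genes comprised 9, of which 8 fell and Rsph4a did not pass (median -0.72). Rsph1 (chr17:31255019-31277356), a spoke head gene, had the highest level of all 48 genes, at 1617, 1664, 1127 and 960 RPKM, and fell by 0.65 ± 0.0717 (adjusted p = 3.39e-07). Spag6l (chr16:16753016-16829456), a central pair gene, was at 28.8, 31.1, 16.1 and 15.8 RPKM and had the largest fall of the group (-0.91 ± 0.0654, adjusted p = 1.21e-09). Nme5, a spoke gene, was at 31.5, 32.5, 20.4 and 15.6 RPKM and fell by 0.83 ± 0.105. The groups did not overlap in these genes, as in all genes called lower.

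The central pair genes Spag17 (23.2, 25.2, 16.1 and 12.9 RPKM, -0.74 ± 0.0861) and Spag16 (5.59, 5.63, 3.43 and 3.38 RPKM, -0.72 ± 0.0877) are both named for sperm antigens. Their groups did not overlap, as in all genes called lower. Hydin, a very large central pair gene, was at 6.63, 6.73, 5.27 and 4.31 RPKM and fell less, by 0.48 ± 0.0767. Rsph3a, at 17.1, 15.3, 11.3 and 11.7 RPKM, fell by 0.49 ± 0.0828. Rsph3a and Spag6l each have a close relative in the genome, Rsph3b and Spag6, and their counts are uncertain to that extent. Rsph9, a spoke head gene with 253, 442, 114 and 123 reads, was at 5.34, 7.28, 3.9 and 3.73 RPKM and fell by 0.73 ± 0.166 (adjusted p = 0.00151). Without WT replicate 2, the library with the highest level of Rsph9, it was not called (-0.50, adjusted p = 0.0638). Rsph4a, the spoke head gene of motile cilia, had 51, 43, 41 and 35 reads, which is 0.473, 0.311, 0.616 and 0.466 RPKM. Its groups overlapped (log2 fold change 0.47 ± 0.332, adjusted p = 0.282), and it held 4.03 times background.

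Other flagellum assembly genes fell in 5 of 5 cases, with a median of -0.70. Cfap43 (chr19:47737561-47919299) and Cfap44 encode partners that tether an inner arm dynein to the doublets. Cfap43 was at 8.05, 8.48, 4.29 and 3.4 RPKM and fell by 1.11 ± 0.0878 (adjusted p = 1.32e-08). Cfap44 was at 4.3, 4.01, 3.04 and 2.25 RPKM and fell by 0.66 ± 0.112. Both had KO replicate 2 lowest. The level of Cfap43 over that of Cfap44 was 1.87 and 2.12 in WT and 1.41 and 1.51 in KO, a pair again chosen after the values were seen.

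Meig1 (chr2:3409043-3422648), which acts in the manchette, the microtubule skirt of the elongating spermatid, was the second most expressed of the 48 genes. It was at 542 RPKM in both WT libraries and at 343 and 272 RPKM in KO (-0.82 ± 0.0854, adjusted p = 5.82e-06). Cfap69, a gene needed for sperm tail formation, was at 11.4, 11.6, 7.53 and 6.6 RPKM and fell by 0.70 ± 0.0724. Mns1, which encodes a protein inside the doublets, was at 100, 94, 77 and 62.2 RPKM and fell by 0.48 ± 0.0813. The KO libraries were below the WT libraries in all 5 genes, as in all genes called lower.

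Tektins, filament proteins of the doublets, included the largest fall of the 48 genes. Tekt4 (chr17:25471590-25476594) was at 8.52, 8.74, 4.01 and 3.65 RPKM and fell by 1.18 ± 0.142 (adjusted p = 1.08e-06). Tekt3 was at 14.5, 13.7, 7.03 and 6.33 RPKM and fell by 1.08 ± 0.11 (adjusted p = 1.05e-07). With Dnaic2 and Cfap43 they were the 4 genes whose log2 fold change was below -1. Tekt2 was at 15.5, 14, 8.72 and 7.72 RPKM (-0.84 ± 0.105), and Tekt1 at 95.2, 103, 59.9 and 53.1 RPKM (-0.81 ± 0.068). The 4 tektins had no overlap between groups, as in all genes called lower.

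Outer dense fibre and fibrous sheath genes were unlike each other. Odf2 (chr2:29889221-29931746), a fibre gene whose product also sits on centrioles, was at 42.8, 44.2, 29.6 and 26.8 RPKM and fell by 0.62 ± 0.0626 (adjusted p = 8.11e-08). Tekt4 over Odf2 was 0.199 and 0.198 in WT and 0.135 and 0.136 in KO, a pair chosen after seeing the values. Odf1, the fibre gene of spermatids, had 4, 7, 3 and 19 reads and was too low to test. Akap4, the X-linked gene of the main fibrous sheath protein, had 14, 4, 6 and 20 reads, with overlapping groups (1.23 ± 0.704, adjusted p = 0.186). Odf1 and Akap4 are also on the list of round spermatid markers. Of its 17 genes 9 were tested, 2 fell and 0 rose, beside 20.3% lower and 11.6% higher of all tested genes. KO replicate 2 held the most reads of Odf1 and of Akap4. Without WT replicate 1 Akap4 was called higher (2.55 ± 1.04). It then passed the filter on low counts only through KO replicate 2, so this call is no support for a rise.

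Other genes of the same structures were mostly lower as well. Over all tested genes 20.3% fell and 11.6% rose, and 30.5% fell and 8.44% rose among those at 5 times background or more. Of 60 further genes of the arms, spokes and central pair 47 fell and 0 rose (median -0.71), among them the sperm spoke gene Rsph6a (-1.11 ± 0.0926) and Ropn1l (-0.91 ± 0.0708). Rsph6a, a relative of Rsph4a, was at 17.6, 18.4, 9.03 and 7.7 RPKM, well above Rsph4a in each library. All 14 further assembly factor genes fell (median -0.66), among them Cfap298 (-0.70 ± 0.0639), Lrrc46 (-0.76 ± 0.0701) and Lrrc56 (-0.69 ± 0.0738). Intraflagellar transport, which carries axonemal parts to the tip, had 29 of 31 genes lower and 0 higher (median -0.44), among them Ift22 (-0.81 ± 0.0703), Ift172 (-0.59 ± 0.0599) and Ttc30a1 (-0.74 ± 0.0792).

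Of 25 further fibre, sheath and sperm channel genes 20 were tested, 12 fell and 1 was called higher (median -0.61). The shares over all tested genes were 20.3% lower and 11.6% higher. The calcium channel subunit genes Catsperz (-1.41 ± 0.0753) and Catsperd (-1.33 ± 0.114) and the septin gene Septin12 (-1.01 ± 0.0943) fell. Catsper4 was called higher with 3, 4, 10 and 11 reads, at 1.15 times background, and passed the filter on low counts only through the KO libraries, so its call is no support for a rise. Of 14 transcription regulators of ciliary or meiotic genes 6 fell and 1 was called higher (median -0.17). Rfx2, the X-box factor needed for spermatid development, was at 73.4, 77.1, 51 and 45.9 RPKM and fell by 0.64 ± 0.0633, its relative Rfx4 fell by 0.75 ± 0.0797, and Tcfl5, a meiotic regulator, fell by 0.68 ± 0.0589. Rfx1 and Rfx3 did not pass (adjusted p = 0.974 and 0.231). Gmnc was called higher with 15, 16, 24 and 19 reads, at 1.12 times background, where the background RPKM was itself higher in KO. Its call is no support for a rise either. Foxj1, the master factor of motile cilia, had 92, 108, 49 and 53 reads and did not pass (-0.18 ± 0.241, adjusted p = 0.601).

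**Figure D4:**
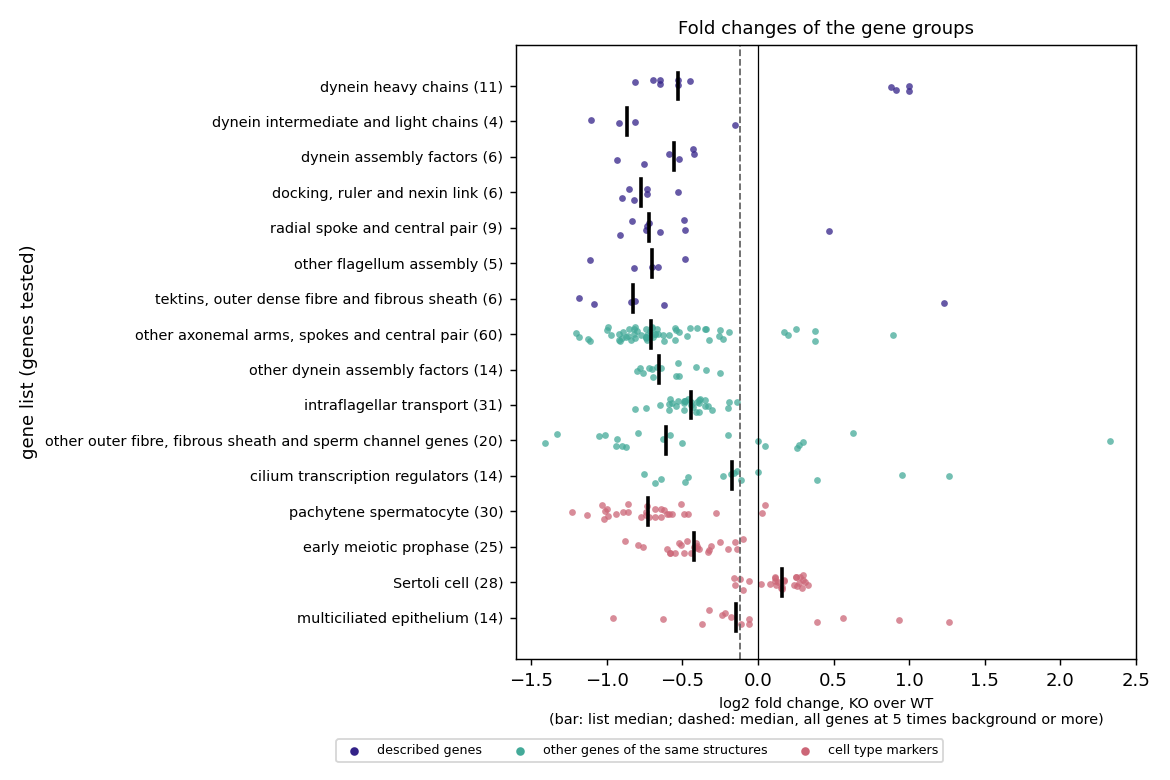
Log2 fold change of KO over WT for each tested gene (points) and the median (bar) of the 7 role groups, the related gene lists and 4 cell type marker lists. The other marker lists, such as undifferentiated spermatogonia and macrophages, are not drawn. The role groups have medians from -0.53 to -0.86, pachytene markers -0.72, early meiotic markers -0.42, multiciliated markers -0.14 and Sertoli markers 0.16.

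Markers of meiotic cells were mostly lower, as the axonemal genes were, but the lists were chosen with earlier results of these data known. Of all tested genes 20.3% fell and 11.6% rose. Of 30 pachytene spermatocyte markers 27 fell and 0 rose (median -0.72), and their summed level was 10666, 11035, 7028 and 6269 CPM (reads scaled to library size alone), none of them listed without reads. The 48 genes summed to 7897, 8159, 5488 and 4660 CPM. Per 1000 reads of pachytene markers the 48 genes thus had 740 and 739 reads in WT and 781 and 743 in KO, with KO above WT by a small margin. Such sums lean on a few highly expressed genes. In WT replicate 1 Rsph1 gave 1883 and Dnah8 1236 of the 7897 CPM. Lyar gave 1717 and Hspa2 1710 of the 10666 CPM of the markers. Per 1000 reads of Sertoli cell markers the 48 genes had 739 and 778 reads in WT and 473 and 415 in KO. Sertoli cells are the somatic supporting cells of the tubule, and of their 28 markers 8 rose and 0 fell, with sums from 10493 to 10691 CPM in WT and from 11224 to 11610 CPM in KO. Of 25 early meiotic prophase markers 21 fell and 0 rose, and of 12 macrophage markers 10 rose and 1 fell. Markers of undifferentiated spermatogonia, the earliest germ cells listed, were mostly not called. Of 15 tested 2 fell and 2 rose (median 0.14, and -0.11 with background subtracted at the library scale as counted). Blood cell markers fell too, in 3 of 3 genes tested of 5 (median -1.42), at sums of 10.7, 13.6, 5.32 and 4.66 CPM. The part of cell composition in the falls was not tested. The gene lists overlap in a few genes, such as Tcfl5, but none of the pachytene markers is among the 48.

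**Figure D5:**
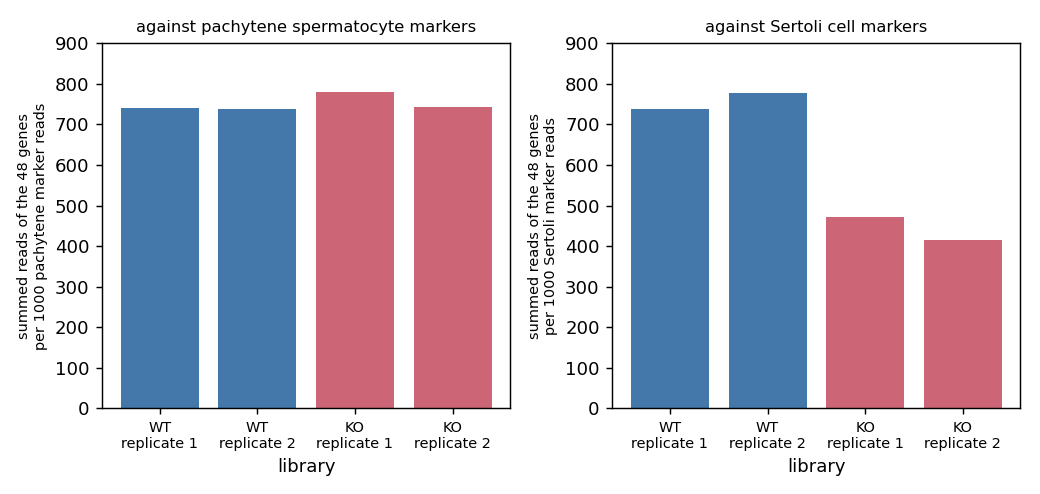
Summed reads of the 48 genes in each library per 1000 reads of pachytene spermatocyte markers (left) and of Sertoli cell markers (right). The sums weigh highly expressed genes most. Against pachytene markers all 4 libraries lie between 739 and 781, and against Sertoli markers the KO libraries (473 and 415) lie below the WT libraries (739 and 778).

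Multiciliated epithelium, as in the efferent ducts beside the testis, shares many of the 48 genes. Of its 18 markers 14 were tested, 3 fell and 1, Gmnc, was called higher, beside 20.3% lower and 11.6% higher of all tested genes. The sum of the markers was 130, 122, 98.9 and 94.4 CPM. Of this the epithelial gene Epcam, which spermatogonia also express, gave 55.4, 48, 41.9 and 40.8 CPM. Besides Epcam the genes that fell were Dynlrb2, a dynein light chain gene, at 42.3, 45.9, 22.9 and 22.6 RPKM (335 times background, -0.96 ± 0.108, adjusted p = 4.10e-07), and Cdhr4, at 4.98, 5.68, 3.5 and 3.42 RPKM (43 times background, -0.63 ± 0.123). The ciliary markers Sntn (7, 0, 6 and 4 reads) and Mcidas (15, 12, 5 and 16 reads) had few reads. Epididymal markers summed to 3.08, 3.48, 5.65 and 4.66 CPM. Sntn, Mcidas and Gmnc held 1.19, 1.75 and 1.12 times background over all libraries, and Ccno, Foxj1 and Deup1 held 9.66, 9.97 and 11.8 times. Their part in the falls was not tested.

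A separate pair of tables counted reads in the 3000 bases upstream of genes, both on the gene's own strand (sense) and opposite to it (antisense). Such regions were given for 27 of the 48 genes. On the antisense strand 21 were tested and 2 were higher in KO, where 11.5% of all tested antisense regions were higher and 0.113% lower. The region of Rsph1 (chr17:31277384-31280383) had 52, 66, 68 and 65 antisense reads, which is 1.76, 1.74, 3.73 and 3.16 CPM, and was higher by 0.97 ± 0.257 (adjusted p = 0.0307). Rsph1 thus had a higher antisense CPM before its start and a lower level in its exons in KO. Its antisense change of 0.97 was close to the median of all tested antisense regions (1.01), so it is not particular to Rsph1. The region of Dnah5 (chr15:28200752-28203751) had 8, 6, 19 and 15 antisense reads and was called higher, by 2.04 ± 0.6 (adjusted p = 0.0419). It passed the filter on low counts only through the KO libraries, so its call is no support for a rise either. Both calls were absent without WT replicate 2, without KO replicate 1, without KO replicate 2 and when the upstream table was scaled on itself.

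The median log2 fold change of the 21 antisense regions was 0.52, beside 1.01 over all tested antisense regions. Summed over the 27 regions antisense reads were 14.5 and 12.2 CPM in WT and 17.7 and 17.9 CPM in KO. On the sense strand 23 regions were tested and 0 were called by edgeR. Of all tested sense regions 0.0544% were called higher and 0.00544% lower. At an unadjusted p under 0.05 in the same test 6 of the 23 were higher and 0 lower. The share of all regions at that cut is not given here, so the 6 are no support for a rise particular to these genes. Medians were 0.76 for these genes and 0.93 for all. Most of these regions held few reads. A typical background region on 1 strand held between 7.51 and 10.1 reads, and the 27 regions held on average 12 to 17.1 antisense reads per library.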

How the data were processed

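The values used are raw read counts that the authors made with featureCounts 1.6.4, by exon on the strand of the gene with GENCODE M18, per the file headers, with upstream regions counted the same way. Per the submitters' processing notes reads were handled with cutadapt and HISAT2 on GRCm38.p5, and for both tools the version is not given in the sources used here. Per the labels the molecule is polyA RNA, whereas their protocols describe total RNA, cDNA primed with random and poly(T) primers, strand selection and depletion of targeted transcripts, so which RNAs were kept is not settled.

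Symbols came from GENCODE M21 (99.88% of genes, all 48 members). Tests across genes used edgeR 4.0.16 under R 4.3.3 (robust quasi-likelihood fit, genotype alone) after filterByExpr and TMM scaling (factors 0.955, 0.942, 1.04 and 1.07), with Benjamini-Hochberg adjustment over all 25076 genes tested and a threshold of 0.05. Upstream tables used the library scale of the gene table and were adjusted over their own regions.

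Background is the mean, after a fraction of 0.25 is dropped at each end, over 13469 upstream regions of untested autosomal genes. It was 2.68, 2.51, 2.99 and 3.36 reads per kilobase in WT 1, WT 2, KO 1 and KO 2, was multiplied by 0.401 on X, and was multiplied by exon length for each gene. It corresponded to 0.915% and 0.658% of tested gene reads in WT and to 1.8% and 1.85% in KO. Reads mapping to several places are not kept by any option in the recorded command.

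All 48 members are named. By rule, values in every library were due by role group for each called rise, up to 4 largest falls, up to 2 uncalled genes and any gene whose call depends on 1 library, and those of the remaining members were added. Further lists name up to 3 called genes per direction by adjusted p, of which 1 is not reported here. Members and lists were chosen with earlier results of these data known. Replicates differed beyond sampling noise (chi-square per degree of freedom 5.15 in WT and 5.99 in KO). Alternatives were DESeq2 1.42.0, other scalings, filters, background subtraction, a replicate block and each library left out.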

Additional observations from a re-analysis of the deposited data

How the results depend on the processing

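Of the 40 falls 35 kept their call under every alternative run, and of the 4 rises Dnah9 alone did. No gene of the 48 reversed. The number lower was 38 with DESeq2, 37 with background subtracted and TMM anew, 39 with a filter of 1 CPM in 2 libraries, 38 to 39 with 1 library left out, and 40 otherwise. The number higher was 2 with background subtracted and TMM anew, 1 at the library scale as counted, and 2 to 5 with 1 library left out (2 without WT replicate 2, 5 without WT replicate 1). For the further axoneme, assembly, transport, sheath and regulator genes 108 were lower, and 103 to 108 under the alternatives. The 2 higher ones, Catsper4 and Gmnc, became 0 with DESeq2 and with background subtracted either way, 1 with the 1 CPM filter, no filter and scaling to Sertoli cell genes, and 0 to 2 with 1 library left out. Upstream, the 2 antisense regions that were higher became 0, with 1 lower, when the table was scaled on itself, and 0 to 3 with 1 library left out. Sense regions that were higher numbered 0, and 0 to 5 with 1 library left out. The median level over the 48 genes was 12.1 RPKM in WT and 6.87 RPKM in KO, and 12 and 6.71 RPKM with background subtracted.

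Scaling to Sertoli cell genes moved the median of all tested genes from 0.05 to -0.06, no filter to 0.21, and subtraction at the library scale as counted to -0.13, and the falls are to be read against these. Over all genes the number higher was also 1937 with no filter and 1324 to 2429 with 1 library left out, where the main count was 2906. Replicate numbers do not pair the libraries by the labels, and deviations of same-numbered libraries correlated at 0.058 (crossed -0.058). With the number as a replicate block 40 of the 48 genes were lower and 4 higher, and 3 of the further genes were higher. Upstream, 2 antisense regions were higher, and 4 sense regions were higher where 0 had been. Over all genes the block gave 5469 lower and 3362 higher, more than the main 5092 and 2906. The share of all upstream regions called under the block and the other alternatives is not given here. The counts of regions under them are thus no support for a rise. With 2 libraries per genotype a lone remaining library was assumed to vary like the others, and genes at or under 5 times background are limited by depth.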
